A study of Mus musculus with 12 samples.

Results

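The genes described here are 31 genes of cultured mouse bone marrow monocytes whose RNA was lower at 24 h than at 12 h of culture, both without and with interferon β (IFNβ). They were chosen by measured values from the authors' deposited tables of called genes. Each is listed in the table of 24 h against 12 h without IFNβ and in that with IFNβ, has a lower mean at 24 h in both, and is absent from the table of IFNβ against control at 12 h. Of 2038 genes in any of these 3 tables, 224 are in both time tables; 160 of these were higher at 24 h in both, 57 lower in both and 7 moved in opposite directions. Of the 57, 21 were left out because the 12 h IFNβ table lists them, and 5 more (Klf4, Ace, Car2, Atf5 and Il1b) because the rule names them.

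Monocytes were isolated from the marrow with magnetic beads (MACS) and cultured in 20 ng/mL M-CSF, a cytokine under which they mature into macrophages. The 4 groups were control 12 h, IFNβ 12 h, control 24 h and IFNβ 24 h, with 3 replicates each; the IFNβ groups also received 100 U of mouse IFNβ, and every group received M-CSF. Total RNA was sequenced in 12 libraries. The labels give no strain or age, and do not tie replicates to separate animals; the p-values below therefore measure the spread between these libraries alone, which may be technical.

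Marrow monocytes placed in M-CSF lose genes of their earlier state while they take on macrophage genes. IFNβ signals through the receptor IFNAR and induces a large antiviral programme. Bead-purified marrow cells can also carry RNA of red cell precursors, whose membrane proteins include band 3 and the Rh complex.

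Values below are normalized counts per gene as deposited, called levels, in the order of replicates 1, 2 and 3. They are comparable within one table, not between genes, since they are not corrected for length. The tables list only genes with an authors' adjusted p under 0.05 and at least 1 unit of log2 change. By the tables, 0.961% of 15822 genes were called lower and 3.12% higher at 24 h without IFNβ, and 1.72% of 15541 lower and 2.16% higher with it. All 31 genes are in the lower class of both by the choice of members, so nothing is read from that. In the authors' deposited tables the log2 fold change of 24 h over 12 h ran from -3.71 to -1.03 over the 31 genes without IFNβ, with a median of -1.65. With IFNβ it ran from -4.67 to -1.001, with a median of -1.72. The medians over all genes called lower were -1.63 (152 genes) and -1.42 (267 genes) in the authors' deposited tables. The 24 h levels lay below every 12 h level in 28 of the 31 genes without IFNβ (90.3%), in 29 with IFNβ (93.5%) and in 27 in both. Over all genes called lower the shares were 87.5% of 152 and 98.1% of 267; these comparisons chose the genes, so nothing is read from the counts.

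The 4 red cell genes come first, with the promoter sequences of 3 of them set beside their values. Slc4a1 encodes band 3, the anion exchanger of the red cell membrane; Rhag encodes the Rh-associated glycoprotein; Ermap encodes a membrane protein of erythroblasts; and Slfn14 encodes an endoribonuclease known from platelet and red cell lineages. RefSeq promoter windows (GRCm38.p6, 250 bases before to 50 after the start site) matched 23 of the 31 genes. Among them, the GATA motif, spelled as AGATAA or as AGATAG or as TGATAA or as TGATAG on either strand and added after the values were seen, was found in 3 of the 3 red cell genes with a window (Slc4a1 has none here) and in 5 of the other 20. It is in the windows of 33.0% of 27025 genes. The sequences show 180 bases from 200 to 21 before the start site, on each gene's own strand, 5′ to 3′, with the motif in capitals as it reads on that strand. Ermap is a member of a fixed list; Rhag and Slfn14 were added after their values were seen.
Ermap, chr4:119190016-119190195, minus strand: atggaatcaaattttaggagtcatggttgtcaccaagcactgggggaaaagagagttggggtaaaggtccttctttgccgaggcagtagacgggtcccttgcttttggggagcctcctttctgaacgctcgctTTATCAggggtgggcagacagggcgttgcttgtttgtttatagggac
Rhag, chr17:40810949-40811128, plus strand: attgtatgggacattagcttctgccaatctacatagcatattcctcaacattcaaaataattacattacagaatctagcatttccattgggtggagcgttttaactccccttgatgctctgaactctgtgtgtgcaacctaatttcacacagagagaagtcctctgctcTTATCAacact
Slfn14, chr11:83286747-83286926, minus strand: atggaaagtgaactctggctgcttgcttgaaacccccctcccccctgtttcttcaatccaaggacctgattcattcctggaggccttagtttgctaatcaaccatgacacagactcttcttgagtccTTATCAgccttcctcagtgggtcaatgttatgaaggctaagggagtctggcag
All 3 hold the letters TTATCA, which is TGATAA on the other strand, with the first base at position -67 from the start site in Ermap, -31 in Rhag and -73 in Slfn14. A match is a description of letters and no evidence that a factor binds there.

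Slc4a1 (chr11:102348820-102365281) stood at 1093, 432 and 357 in the controls at 12 h and at 275, 133 and 40.05 at 24 h, or 627 ± 405 and 149 ± 118 (mean ± SD, n = 3). With IFNβ, Slc4a1 levels were 388, 157 and 186 at 12 h and 95.1, 25.6 and 40.8 at 24 h. All 24 h libraries lay below all 12 h libraries in both cultures, and the authors' deposited tables gave log2 fold changes of -2.07 without and -2.18 with IFNβ. Ermap levels in the controls were 138, 51.4 and 44.1 at 12 h and 28.6, 22.04 and 8.49 at 24 h. Under IFNβ, Ermap stood at 32.8, 15.7 and 26.9, then at 11.8, 0.183 and 3.07. Again no 24 h library reached a 12 h library of its own culture, with log2 fold changes of -1.98 and -2.29 in the authors' deposited tables. Rhag levels in the controls were 28.02, 9.88 and 8.79 at 12 h and 2.95, 2.76 and 1.07 at 24 h. Under IFNβ, Rhag stood at 18.5, 12.4 and 3.34, then at 0.904, 0.0135 and 0.00154; Btnl10 has the same 3 values in the latter libraries, so they sit at the bottom of the scale. Its log2 fold changes in the authors' deposited tables were -2.72 and -4.67, the second resting on those values. Slfn14 was 149.9, 36.5 and 48.98 at 12 h and 39.4, 16.3 and 12.7 at 24 h in the controls, where the groups overlap through replicate 1. With IFNβ its 12 h levels, 83.6, 19.96 and 18.4, were all above its 24 h levels, 9.72, 8.34 and 8.16.

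Replicate 1 was the highest of the 3 in all 4 groups for each of these 4 genes. Summed over the 4, the controls stood at 1409, 530.2 and 459 at 12 h and at 346, 174 and 62.3 at 24 h. With IFNβ the sums were 523, 205 and 235 at 12 h and 118, 34.2 and 52.0 at 24 h. The 24 h sum of replicate 1 stayed below the 12 h sums of every replicate of its own culture. Nothing is read from this, since the choice of genes used these values. Slc4a1 makes up most of each sum, so the sums hide the overlap of the Slfn14 control groups. In bulk samples, fewer cells of a type and less RNA per cell cannot be told apart, here and for every gene below. Of a list of 13 red cell markers, 3 (Slc4a1, Ermap and Car2) were called lower in both time tables and 0 higher; the tables give no level for the other 10, among them the globin genes. The summed level of the 3 ran from 784 to 1663 in the controls at 12 h and from 229 to 542 at 24 h. With IFNβ it was 451 to 695 and then 158 to 211. The part of red cell RNA in the result was not tested. The plot of red cell genes by replicate shows this order beside Btnl10 and Jchain.

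**Figure D1:**
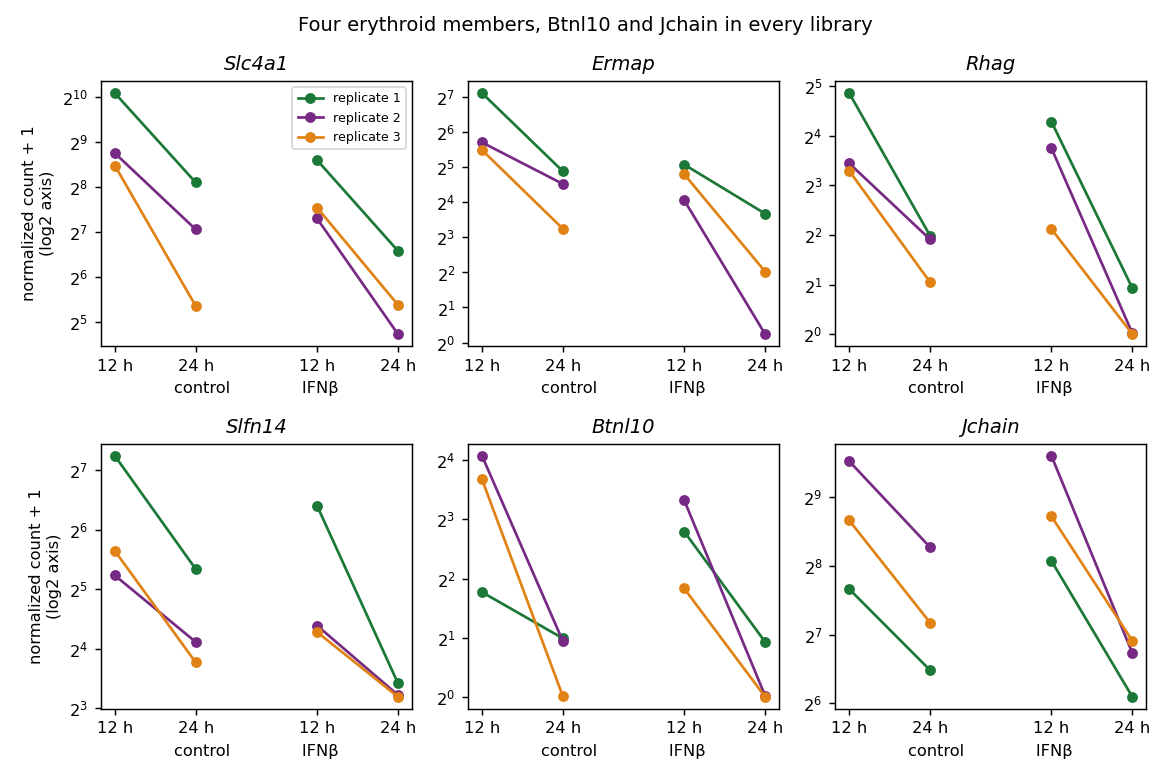
Levels of Slc4a1, Ermap, Rhag, Slfn14, Btnl10 and Jchain in the 12 libraries, by group (x axis) and replicate; the y axis is the deposited normalized count + 1 on a log2 axis that differs between panels, and lines join libraries of one replicate number. Replicate 1 is the highest point of every group for Slc4a1, Ermap, Rhag and Slfn14, and each line falls from 12 h to 24 h.

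Btnl10 encodes a butyrophilin-like protein, and Jchain encodes the chain that joins IgM and IgA in antibody-secreting cells. Btnl10 levels were low: 2.41, 15.9 and 11.8 in the controls at 12 h and 0.985, 0.919 and 0.00681 at 24 h. With IFNβ they were 5.93, 9.01 and 2.56, then 0.904, 0.0135 and 0.00154. Its log2 fold changes, -3.71 and -3.70 in the authors' deposited tables, rest on 24 h values near the bottom of the scale. Jchain levels were 201, 730.4 and 402 in the controls at 12 h and 88.4, 307 and 143 at 24 h. With IFNβ, Jchain levels were 268, 771 and 419, then 67.4, 105 and 119. The control groups overlap because replicate 2 at 24 h exceeds replicate 1 at 12 h, whereas the IFNβ groups do not. Replicate 2 was the highest of the 3 in 3 of 4 groups. Of 12 B cell markers, 3 (Ms4a1, Cd22 and Fcmr) were called higher at 24 h in the controls and 0 lower.

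There are 5 genes that act in the extracellular matrix. Serpinh1 encodes HSP47, the collagen chaperone of the endoplasmic reticulum; its control levels were 18.95, 46.5 and 35.3 at 12 h and 6.90, 2.68 and 4.19 at 24 h. With IFNβ, Serpinh1 was at 14.8, 40.1 and 35.98, then at 2.69, 0.0646 and 2.04. Neither pair of groups overlapped, and the log2 fold changes in the authors' deposited tables were -2.84 and -4.09. Col4a1 encodes a collagen chain of basement membranes and stood at 32.1, 71.3 and 43.1 in the controls at 12 h and 9.82, 14.7 and 14.6 at 24 h. With IFNβ, Col4a1 was at 48.03, 95.9 and 85.3, then at 5.22, 8.18 and 6.12. Its 12 h levels were highest in replicate 2 in both cultures, and the log2 fold changes were -1.89 without and -3.54 with IFNβ in the authors' deposited tables. Expressed as the difference between the IFNβ and control time changes on the log2(value + 1) scale, Col4a1 gave -1.58 ± 0.59 (SE), given without a test because the choice of genes used both changes. Ccdc80, a secreted matrix protein (chr16:45093407-45127924), had control levels of 492, 477 and 635 at 12 h and 124, 137 and 141 at 24 h, or 535 ± 87.2 and 134 ± 8.97 (mean ± SD, n = 3). With IFNβ its levels were 969, 774 and 718 and 413, 359 and 342, or 820.3 ± 132 and 372 ± 37.05 (n = 3). The fall was the smaller one under IFNβ, -1.14 against -1.99 in the authors' deposited tables. Plod2, a lysyl hydroxylase of collagen, had replicate 1 far below the others at 12 h (7.22, 84.2 and 83.5 in the controls and 17.8, 273 and 89.3 with IFNβ), and its groups overlap in both cultures. Matn2, a matrilin, gave -1.38 and -1.72 in the authors' deposited tables with no overlap. Of 13 stromal and endothelial markers, 1 (Col1a2) was called lower and 2 (Kdr and Postn) higher in the controls, and none with IFNβ.

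Another 3 genes encode secreted factors. Igfbp6 encodes a binding protein of insulin-like growth factors; its control levels were 781, 543 and 1034 at 12 h and 232, 163 and 199 at 24 h. With IFNβ, Igfbp6 was at 1041, 977 and 704, then at 492, 468 and 395. The authors' deposited tables gave -1.99 without and -1.01 with IFNβ. Calca encodes calcitonin and the peptide CGRP, and its control levels were 43.3, 88.05 and 167 at 12 h and 15.7, 19.2 and 24.98 at 24 h. With IFNβ, Calca was at 45.5, 76.4 and 62.8, then at 8.02, 1.44 and 8.13. Replicate 3 was highest in 3 of 4 groups, and the log2 fold changes were -2.31 and -3.34 in the authors' deposited tables. Angptl6, an angiopoietin-like protein, gave -1.54 and -1.59 there.

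There are 6 genes for enzymes or enzyme subunits of metabolism. Phgdh (chr3:98313171-98339969), which catalyses the first step of serine synthesis, was at 4373, 3883 and 5104 in the controls at 12 h and 2186, 1832 and 2132 at 24 h, or 4453 ± 615 and 2050 ± 191 (mean ± SD, n = 3). With IFNβ its levels were 5966, 6099 and 5670 and 2565, 3287 and 2580, or 5912 ± 219.7 and 2810 ± 412 (n = 3). Both falls were close to 1 log2 unit, -1.12 and -1.07 in the authors' deposited tables. Cox6a2, the muscle-type isoform of a cytochrome c oxidase subunit, was at 416, 352 and 527 in the controls at 12 h and 145, 148 and 122 at 24 h. With IFNβ, Cox6a2 was at 579, 567 and 574, then at 319.8, 234 and 305, and its fold change of -1.001 in the authors' deposited table is the one nearest the table's threshold. Car5b, a mitochondrial carbonic anhydrase, was at 849, 594 and 982 in the controls at 12 h and 287, 265 and 342 at 24 h. Its IFNβ levels were 628, 569 and 583, then 283, 168 and 221, a similar fall (-1.44 and -1.40 in the authors' deposited tables). Car6, a secreted carbonic anhydrase, was at 123, 98.9 and 264 in the controls at 12 h and 12.8, 4.29 and 32.1 at 24 h. Its IFNβ levels were 119.5, 67.8 and 144, then 17.4, 16.9 and 36.6. Replicate 3 was the highest in all 4 groups, and the log2 fold changes were -3.29 and -2.22 in the authors' deposited tables. Il4i1, an L-amino acid oxidase, was at 59.1, 51.4 and 65.8 in the controls at 12 h and 20.7, 11.7 and 31.2 at 24 h. Its IFNβ levels were 18.04, 15.7 and 36.2, then 5.25, 4.82 and 7.12, and replicate 3 was the highest in all 4 groups. The exons of Il4i1 overlap those of Tbc1d17, Atf5 and Nup62 in the GENCODE annotation, and with no stated strand setting for the counting their reads cannot be told apart. Exons of Angptl6, Col4a1, Cox6a2, Dpep3, H1fx, Matn2, Nrbp2, Paqr3, Phldb1, Plekha6, Plod2 and Ptprr overlap another annotated gene too. Dpep3, a dipeptidase, gave -1.17 and -1.39, with overlapping groups under IFNβ.

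A set of 4 genes acts in signalling. Ptprr, a tyrosine phosphatase, was at 6.82, 12.9 and 26.6 in the controls at 12 h and 1.96, 2.75 and 3.12 at 24 h. With IFNβ, Ptprr was at 20.5, 29.3 and 33.3, then at 9.78, 4.93 and 8.15. Nrbp2, a pseudokinase, was at 58.8, 216 and 197 in the controls at 12 h and 8.79, 40.8 and 16.8 at 24 h. With IFNβ, Nrbp2 was at 44.5, 132 and 47.2, then at 13.2, 7.42 and 18.3; replicate 2 was the highest in 3 of 4 groups. The log2 fold changes of Nrbp2 were -2.83 and -2.51 in the authors' deposited tables. Epha2, an ephrin receptor kinase, gave -1.65 and -1.41, and Paqr3, a Golgi protein, gave -1.16 and -1.57 there.

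The remaining 7 genes encode cytoskeletal, nuclear and other proteins. Tubb3, a β-tubulin, was at 77.8, 49.4 and 115 in the controls at 12 h and 8.80, 12.7 and 34.2 at 24 h. With IFNβ, Tubb3 was at 46.4, 62.2 and 45.6, then at 16.3, 2.67 and 4.10. Its log2 fold changes were -2.11 and -2.71 in the authors' deposited tables. Phldb1 was at 1439, 1210 and 1106 in the controls at 12 h and 705, 551 and 578 at 24 h. With IFNβ, Phldb1 was at 559, 546 and 615, then at 190.1, 164 and 283. The Phldb1 control change of -1.03 in the authors' deposited table lies near the threshold. Pif1, a DNA helicase, was at 1441, 1489 and 1515 in the controls at 12 h and 614, 806 and 707 at 24 h. With IFNβ, Pif1 was at 743, 768 and 845, then at 334, 438 and 382, a log2 fold change of -1.03 against -1.06 in the authors' deposited tables. Kctd14 was at 411, 358 and 562 in the controls at 12 h and 213, 207 and 233 at 24 h. With IFNβ, Kctd14 was at 185, 190.2 and 286, then at 65.8, 74.7 and 97.8; replicate 3 was the highest in all 4 groups. H1fx, a linker histone, gave -1.48 and -1.32, Myl9, a myosin regulatory light chain, -1.21 and -1.29, and Plekha6 -1.12 and -1.24 in the authors' deposited tables. The heat map of the 31 genes by library sets each library against the 12 h mean of its own treatment.

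**Figure D2:**
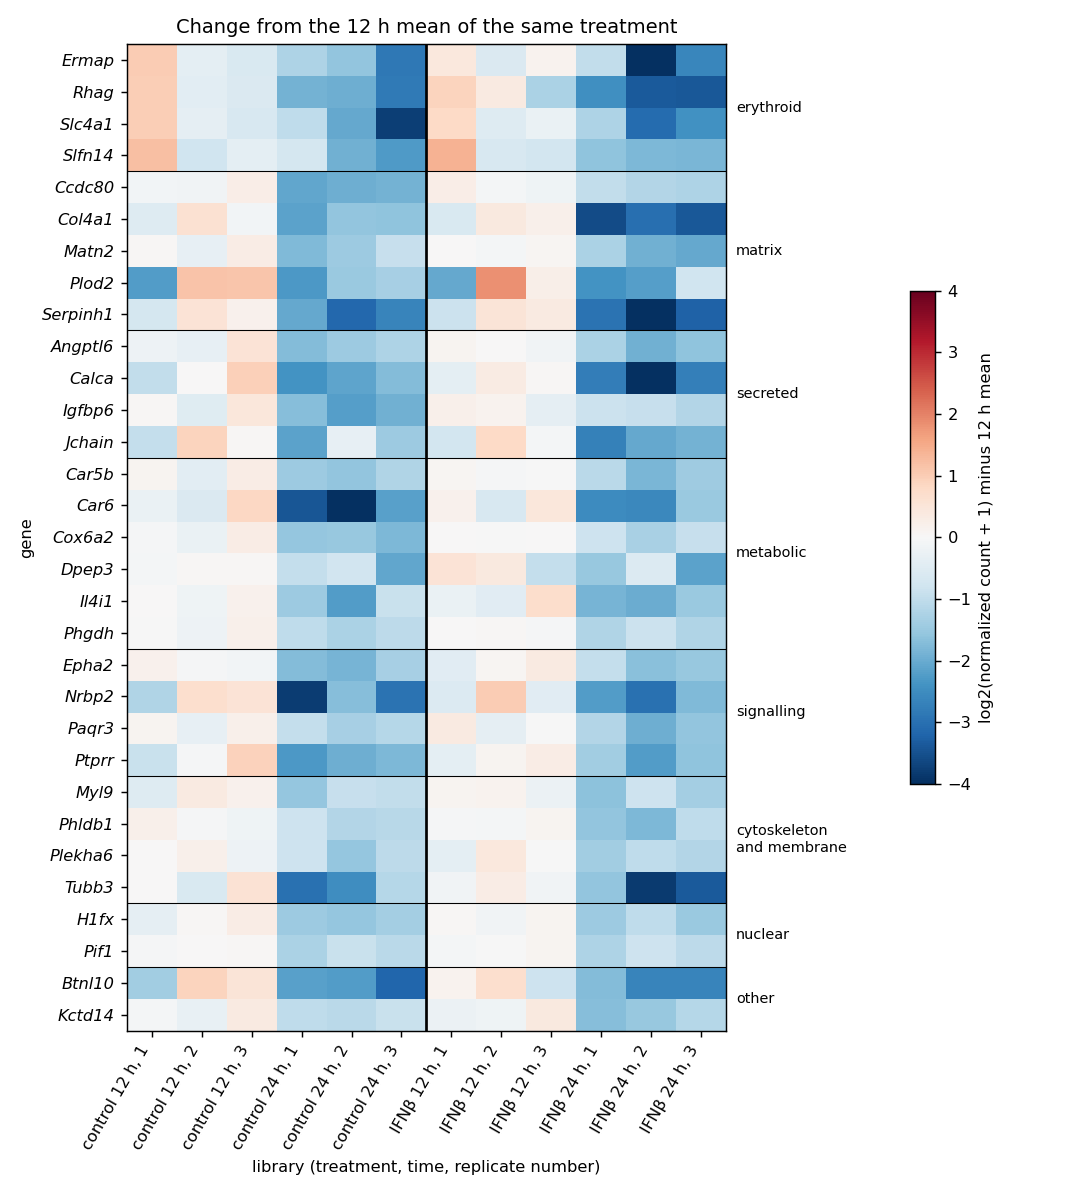
Heat map of the 31 genes (rows, grouped by role) in the 12 libraries (columns); colour is log2(normalized count + 1) minus the 12 h mean of the same treatment, blue for lower and red for higher. The 24 h columns are blue or pale blue, and the red 12 h cells of replicate 1 in Ermap, Rhag, Slc4a1 and Slfn14 and of the other replicates in Plod2 stand out.

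The genes nearest the fold threshold were Kctd14, Phldb1 and Pif1 in the controls and Cox6a2, Igfbp6 and Pif1 with IFNβ. Jchain had the highest authors' adjusted p without IFNβ, 0.0494, and Btnl10 the highest with it, 0.0343, in the authors' deposited tables. Among the 21 genes lowered in both time tables but listed in the 12 h IFNβ table, the nearest to that table's threshold were Dmkn (log2 fold change -1.05), Vcan (-1.07) and Trim46 (1.10) in the authors' deposited table.

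Of 8 pathway and cell state lists, 1 holds a gene of the 31, namely Phgdh. Klf4 and Ace of the monocyte list and Atf5 of the amino acid list were also lower in both, but the rule leaves them out by name. Of 37 amino acid supply and integrated stress genes, 6 were called lower without and 11 with IFNβ, and none higher. Phgdh, Atf5, Trib3 and Slc7a5 were lower in both. In the authors' comparison of IFNβ with control at 12 h, 12 genes of this list were higher and 0 lower, Trib3 and Slc7a5 among the higher. Trib3 and Slc7a5, which are not among the 31, thus fell from a raised 12 h level with IFNβ (log2 fold changes -3.06 and -1.22). Without IFNβ their log2 fold changes were -3.52 and -1.19 in the authors' deposited tables. The part of the 12 h level in the falls was not tested. Of 37 hypoxia and glucose use genes, 9 were called lower without IFNβ and 2 with it, no gene in both. Of 27 monocyte genes, 5 were lower without IFNβ and 7 with it, and none higher. Of 34 macrophage genes, 14 were higher and 1 lower in each culture, the lower one being Arg1 without IFNβ and Spic with it. Of 32 immediate early genes, 1 was lower and 3 higher without IFNβ, and 5 lower and 1 higher with it. Of 21 STAT5 and STAT6 target genes, 5 were lower and 1 higher without IFNβ, and 1 lower and 2 higher with it. Of 37 cell cycle genes, 1 was lower and 1 higher without IFNβ and none with it, and of 27 sterol and fatty acid genes none was called in either. Among the other marker lists, without IFNβ, 4 of 19 neutrophil markers, 3 of 13 dendritic cell markers and 4 of 12 osteoclast markers were higher. In the same comparison 1 osteoclast marker (Car2) was lower, and 2 of 15 T and NK cell and 2 of 7 megakaryocyte markers were higher. With IFNβ, 1 neutrophil marker, 1 T and NK cell marker and no megakaryocyte or B cell marker was higher, none of them lower. Of the dendritic cell markers 2 were then higher and 1 (Xcr1) lower, and of the osteoclast markers 2 were higher and 2 (Ocstamp and Car2) lower. None of 10 mast cell and 7 eosinophil markers was listed in any time table.

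Other promoter motifs were looked for in the 23 windows on both strands. ACGTG, the hypoxia response core, was in 7 windows (30.4%), against 21.8% of all genes. TGATGNAA was in 1 (Tubb3) against 4.51%, TGANTCA in 1 (Slfn14) against 8.97% and TGACGT in 2 (Epha2 and Paqr3) against 8.37%. TTCNNNGAA was in none, against 9.55%. The share with a GATA motif was 34.8% in the 23, against 33.0%. These letters describe the windows only.

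The choice of genes did not compare IFNβ with control at 24 h, but it is not independent of that difference. It used both time changes and left out genes listed for IFNβ at 12 h. The 24 h difference is the 12 h difference plus the difference between the time changes. The rest of the 224 genes could be listed at 12 h, so the shares below are not like for like. The IFNβ difference at 24 h was tested with limma on log2(value + 1) over the 12 libraries and the 224 genes of both time tables. These genes passed the authors' thresholds in the same libraries, which favours genes with a small spread. The SEs and adjusted p-values may therefore be too small. The tables were first brought to a common scale, and p-values were adjusted by Benjamini-Hochberg. Of the 31 genes, 10 were called at adjusted p under 0.05, 5 higher and 5 lower with IFNβ, or 32.3%, 16.1% and 16.1%. Over the 224 genes, 41.5% were called, 20.5% higher and 21.0% lower. With a replicate block, a term that gives each replicate number its own level, 13 of the 31 (41.9%; 6 higher and 7 lower) and 129 of the 224 (57.6%; 51 higher and 78 lower) were called. Without bringing the tables to one scale, the genes called were 3 higher and 8 lower among the 31, and 32 higher and 83 lower among the 224. In all 3 of these fits the share called among the 31 was below that of all 224, and nothing particular to the 31 is read from it. The groups did not overlap at 24 h in 13 of the 31 genes and in 130 of the 224 (58.0%).

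There were 5 genes higher with IFNβ at 24 h; means are on the common scale, ± SD, n = 3. Ccdc80 stood at 119.9 ± 8.02 in the controls and 415 ± 41.4 with IFNβ, a log2 difference of 1.78 ± 0.21 (SE; 95% interval 1.33 to 2.23, adjusted p = 1.64e-05). Igfbp6 stood at 177 ± 31.03 and 505 ± 56.4 (1.51 ± 0.26, 0.96 to 2.07, adjusted p = 4.22e-04). Cox6a2 stood at 124 ± 12.4 and 319.8 ± 51.4 (1.36 ± 0.22, 0.88 to 1.84, adjusted p = 3.25e-04). In these 3 genes every IFNβ library at 24 h lay above every control library. The 24 h groups did not overlap in any of the 10 called genes, nor in 3 of the 21 not called. Phgdh stood at 1833 ± 171 and 3142 ± 461 (0.77 ± 0.18, adjusted p = 0.00372), a call lost when the tables were not brought to one scale (0.0515). Ptprr stood at 2.33 ± 0.531 and 8.52 ± 2.76 (1.48 ± 0.51, adjusted p = 0.0311).

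The other 5 were lower. Phldb1 stood at 547 ± 73.5 in the controls and 237 ± 70.04 with IFNβ, a log2 difference of -1.23 ± 0.23 (95% interval -1.72 to -0.74, adjusted p = 6.63e-04). Kctd14 stood at 195 ± 12.00 and 88.8 ± 18.4 (-1.14 ± 0.27, -1.71 to -0.57, adjusted p = 0.00360). Il4i1, with its overlapping genes, stood at 18.9 ± 8.73 and 6.41 ± 1.37 (-1.34 ± 0.45, adjusted p = 0.0268). Pif1 stood at 634 ± 86.1 and 430.2 ± 57.9 (-0.56 ± 0.19, adjusted p = 0.0292), the smallest of the 10 differences. Calca stood at 17.9 ± 4.19 and 6.56 ± 4.28 (-1.53 ± 0.57, adjusted p = 0.0442), with a wide interval of -2.76 to -0.31. Leaving out 1 library ended several calls. Il4i1 had an adjusted p of 0.0720 and 0.126 without control 24 h replicate 1 or 3, and 0.0606 and 0.0665 without IFNβ 24 h replicate 1 or 2. Pif1 had 0.112 and 0.0724 without control 24 h replicate 2 or 3, and 0.102 and 0.0659 without IFNβ 24 h replicate 1 or 3. Calca lost its call without control 24 h replicate 1, 2 or 3 (0.0649, 0.0855 and 0.125), IFNβ 24 h replicate 2 (0.184), control 12 h replicate 2 (0.0568) or IFNβ 12 h replicate 3 (0.0532). Ptprr lost it without control 24 h replicate 1, 2 or 3 (0.0868, 0.0664 and 0.0525) or IFNβ 24 h replicate 1 or 3 (0.0955 and 0.0754). The calls of Ccdc80, Cox6a2, Igfbp6, Kctd14 and Phldb1 held in all 18 alternatives run.

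All 10 differed in the same direction at 12 h without passing the authors' thresholds there, from -1.07 in Il4i1 to 1.27 in Ptprr on the same scale. So did the other 21 genes except Car6, Col4a1, Dpep3, Jchain and Serpinh1, so this is not particular to the 10. It is a description, since absence from the 12 h table chose the genes. The fall was steeper with IFNβ in 19 of the 31 genes, and nothing is read from this count, since both time changes chose the genes. The median difference between the time changes was -0.13 in the 31 and -0.055 over all 224, most of which rose. Igfbp6 and Ccdc80 were among the genes with the smaller fall under IFNβ, with a difference between the time changes of 0.96 ± 0.37 and 0.84 ± 0.30 (SE). Col4a1 (-1.58 ± 0.59), Calca (-1.34 ± 0.81) and Serpinh1 (-1.15 ± 0.86) had differences of the opposite sign; all of these are given without a test. The plot of both time changes shows these genes on either side of the line of equal change.

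**Figure D3:**
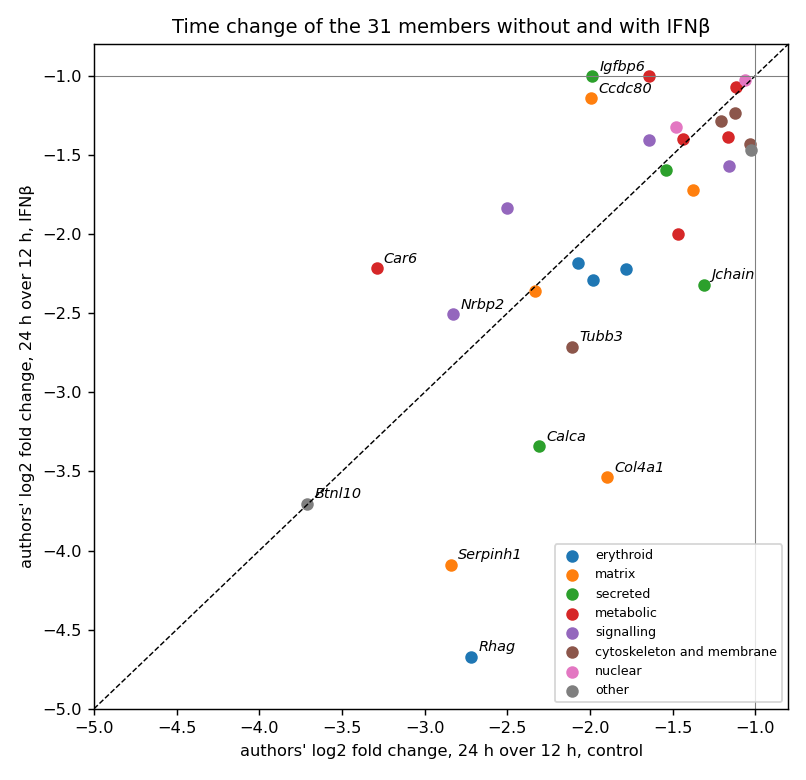
Log2 fold change of 24 h over 12 h from the authors' deposited tables without IFNβ (x axis) and with IFNβ (y axis), one point per gene for the 31 genes, coloured by role; the dashed line marks equal change and the grey lines the tables' threshold. Rhag, Col4a1, Serpinh1, Calca and Jchain lie below the dashed line and Car6, Igfbp6 and Ccdc80 above it.

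The other 21 genes were not called at 24 h, which does not show that they were equal. Ermap was at the threshold: -1.99 ± 0.77 (95% interval -3.63 to -0.34, adjusted p = 0.0503), with the replicate block giving an adjusted p of 0.00633. Slc4a1 and Car6 passed with the block: Slc4a1 (-0.96 ± 0.65, adjusted p = 0.250, with the block 0.0219) and Car6 (1.09 ± 0.60, adjusted p = 0.151, with the block 0.0152). Without control 24 h replicate 3, Slc4a1 gave 0.0376, Car6 0.0290 and Ermap 0.0322. Ermap also passed without IFNβ 24 h replicate 1 (0.00681) or control 12 h replicate 1 (0.0471), and Tubb3 passed without IFNβ 24 h replicate 1 (0.0296). Rhag gave -1.20 ± 0.67 (adjusted p = 0.153), Slfn14 -0.83 ± 0.64 and Btnl10 -0.25 ± 0.69. Car5b differed by -0.12 ± 0.25 with an interval of -0.65 to 0.42. The plot of 24 h differences gives all 31 with their intervals.

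**Figure D4:**
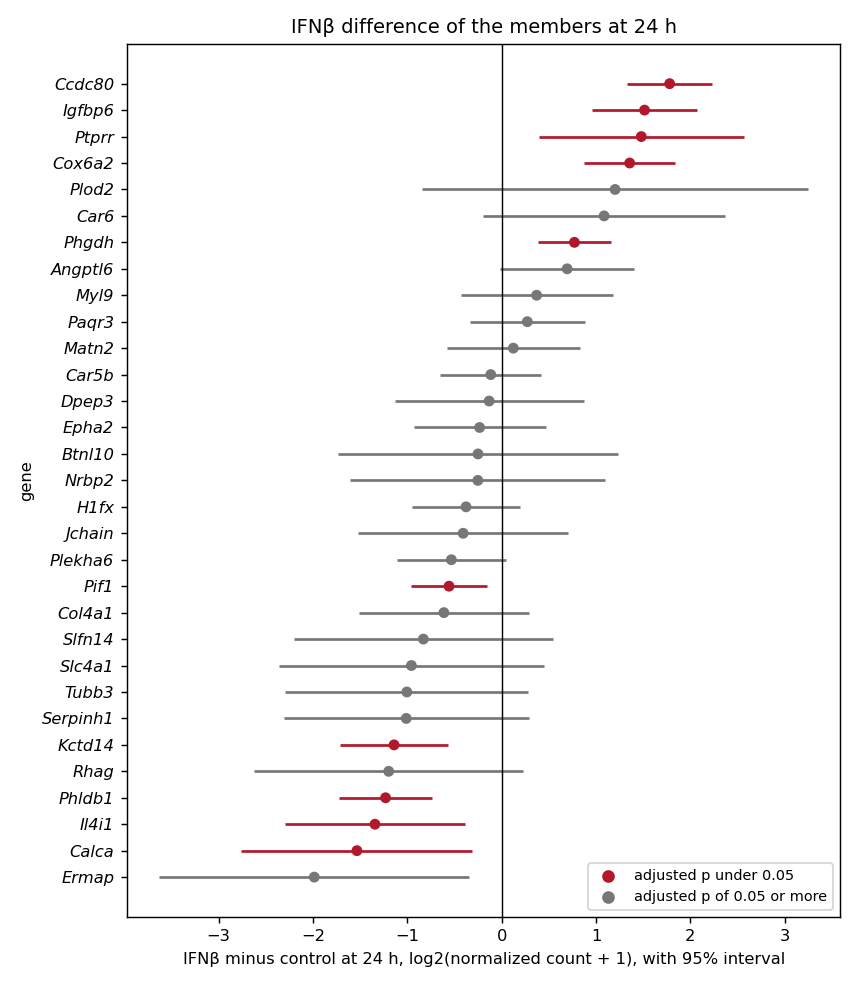
IFNβ minus control at 24 h on the log2(value + 1) scale for the 31 genes, with 95% intervals; red marks genes with a limma adjusted p under 0.05 (Benjamini-Hochberg over 224 genes) and grey the rest. Ccdc80, Igfbp6, Cox6a2, Phgdh and Ptprr lie to the right of 0 and Phldb1, Kctd14, Il4i1, Pif1 and Calca to the left.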

How the data were processed

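Total RNA of 12 libraries was sequenced. The submitters' processing notes name bcl2fastq, HISAT2 2.2.1, edgeR 3.3.3 and GRCm38; how reads were counted, on which annotation and strand, and with which filters is not given in the sources used here. The authors deposited, per the file headers, 3 tables, each with 6 library columns, the log2 fold change and both raw and adjusted p-values. The library columns were read from the values as a signal, normalized counts the authors scaled to one library size within a table; whole reads could not be recovered and depth is unknown. A deposited table of 5 genes at 24 h holds 0 of the 31. For tests across tables, values were multiplied by 0.894 (controls) and 1.12 (IFNβ), from the 12 h libraries that the tables share. The test was limma (version 3.58.1, R 4.3.3) with a variance trend, applied to log2(value + 1) and adjusted by Benjamini-Hochberg over 224 genes. In simulated data with 60 of 224 genes changed at 24 h, it called 50% of 30 genes changed 2-fold. It called 80% of 30 genes changed 4-fold and made 1 false call, so differences of these sizes can be missed. The simulation did not include the choice of genes by their time changes. The planned test for counts was not needed, since the files hold no counts.

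Members and lists were chosen with earlier results of these data known; roles were assigned from background knowledge after the values were seen. Library values are given for the 8 steepest and 8 highest genes, those in a list and those called at 24 h. The levels of Slfn14 and the 12 h levels of Plod2 are given outside that rule. Same-numbered libraries deviated together (r 0.159 to 0.400 over 12 pairs) and different numbers did not (-0.327 to 0.115), so the numbers were taken to pair the samples. Deviations cancel out within a group, so the lower values for different numbers partly follow from the higher ones. The calls, SEs, intervals and adjusted p-values come from the fit without a replicate block, except where the block is named. They leave the pairing out, and the blocked counts are given beside them. RefSeq names matched all 31 genes, H1fx by a synonym.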

Additional observations from a re-analysis of the deposited data

How the results depend on the processing

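The count of genes called at 24 h was 10 of 31 and stayed between 7 and 13 in all alternatives. It was 11 with a pseudocount of 0.1, 13 with the replicate block, 11 without one scale and 10 without a variance trend. With a mean of at least 20 it was 9 of 27 genes. It was 8 from the 24 h libraries alone and 7 to 11 leaving out each library. Over the 224 genes the count was 93 and ran from 74 to 97 leaving out each library. It was 129 under the replicate block, 115 without one scale, 92 without a variance trend and 85 with a pseudocount of 0.1. With a mean of at least 20 it was 87 of 202 genes. The 24 h libraries alone gave 109 of the 224 (48.7%), against 25.8% of the 31, and nothing is read from this gap. None of the 10 called genes changed sign in any alternative. Of the 21 others 6 did: Matn2 and Paqr3 without one scale (-0.19 and -0.05), and Matn2, Dpep3, Jchain, Nrbp2 and Car5b without one 24 h library, from -0.12 in Matn2 to 0.30 in Nrbp2. Calca and Pif1 also lost their calls when only the 24 h libraries were fitted (adjusted p 0.0524 and 0.0545), and Ptprr when the tables were not brought to one scale (0.0569). Without one scale Ermap, Plekha6 and H1fx passed (0.0236, 0.0182 and 0.0405), and Rhag passed with a pseudocount of 0.1 (0.0352). The replicate block changed the calls of Ermap, Slc4a1 and Car6 only. Requiring a log2 fold change of at most -1.5 in both tables kept 14 genes. The median time change on the log2(value + 1) scale was -1.63 without IFNβ (-1.672 to -1.469 leaving out each library) and -1.744 with it (-1.76 to -1.591); with a mean of at least 20 the latter was -1.467, over fewer genes. Depth is unknown, so no floor could be set for the lowest genes, Btnl10 and Rhag.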
